A study of Mus musculus with 20 samples.

Results

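The type I interferon response genes described here are 36 genes, taken by symbol: 3 transcriptional regulators, 9 nucleic acid sensors and related proteins, 13 antiviral effectors, 3 genes of the ISG15 system and 8 other induced genes. Of the 36, 35 were listed among the 26608 genes of a table of LOY and Control kidneys, and 35 among the 30809 genes of a table of kidneys after ABT-263. Every listed member passed the filter on low counts, so 35 members were tested in each table, beside 14978 and 16956 genes in all. Ifi27 was missing under that symbol from the first table and Pyhin1 from the second. A row under a RefSeq synonym of each is given separately below.

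Kidney RNA of aged mice with transplanted bone marrow was sequenced, with 1 library per animal. LOY stands for loss of the Y chromosome, here in the blood system that the transplant provides, so the kidney's own cells were those of the host. The first table compared 6 mice with Control marrow (animals 3, 11, 12, 13, 16 and 17) with 6 mice with LOY marrow (animals 5, 8, 9, 10, 14 and 18). The second held LOY mice only, 4 given a control compound (animals 6, 8, 9 and 10) and 4 given ABT263 (animals 15, 16, 17 and 18), an inhibitor of BCL-2 family survival proteins used to kill senescent cells. Numbers 8, 9, 10, 16, 17 and 18 occur in both tables as separate samples, so a number names a kidney only within its table. Strain, sex, age in numbers, dose and the method that removed the chromosome were not given in the sources used here.

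Type I interferons are secreted when cells detect foreign or misplaced nucleic acid. They bind the IFNAR1 and IFNAR2 receptor, whose kinases JAK1 and TYK2 activate STAT2. It joins IRF9 in the complex ISGF3, which binds interferon-stimulated response elements (ISREs) in promoters of induced genes. The induced proteins sense viral RNA or DNA, block viral replication and feed back on the pathway. Kidney epithelium, endothelium and resident or infiltrating leukocytes can all respond, and in bulk tissue a different number of responding cells cannot be told apart from a different amount of RNA per cell.

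Promoter sequence shows which of the members with a promoter entry carry the element that ISGF3 is known to bind. The core of the ISRE was searched as GAAA, any 2 bases and GAAA again, on both strands, in 300 bases around each RefSeq start site (250 before it and 50 after; GRCm38.p6). Of the 25 members with a promoter entry, 12 held a match (48%), against 1079 of 27025 genes with an entry (3.99%) and 1131 of 32851 promoters (3.44%). The pair of STAT half-sites TTCNNNGAA was in 6 of the 25 (24%), against 9.55% of all genes. The STAT pair was also searched on both strands, and a match of one motif may overlap a match of the other. The upstream 250 bases of 3 members are printed 5′ to 3′ on the gene's strand, with ISRE matches in capitals. Isg15 (chr4:156200819-156201068, minus strand) was chosen for its run of overlapping matches. Ifit1 (chr19:34640639-34640888, plus strand) has a pair of separate matches read on the opposite strand. Pyhin1 (entered as Ifi209, chr1:173630609-173630858, plus strand) has no match in its window although its RNA was higher in LOY kidneys.
Isg15: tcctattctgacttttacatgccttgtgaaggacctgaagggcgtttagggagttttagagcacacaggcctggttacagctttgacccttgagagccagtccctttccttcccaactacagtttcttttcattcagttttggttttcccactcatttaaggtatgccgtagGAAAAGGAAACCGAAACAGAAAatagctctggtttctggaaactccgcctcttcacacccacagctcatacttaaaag
Ifit1: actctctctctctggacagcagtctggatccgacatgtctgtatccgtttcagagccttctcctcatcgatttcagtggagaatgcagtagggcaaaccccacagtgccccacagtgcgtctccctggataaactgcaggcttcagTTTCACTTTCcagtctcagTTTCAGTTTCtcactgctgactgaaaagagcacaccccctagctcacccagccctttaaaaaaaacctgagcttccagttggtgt
Pyhin1: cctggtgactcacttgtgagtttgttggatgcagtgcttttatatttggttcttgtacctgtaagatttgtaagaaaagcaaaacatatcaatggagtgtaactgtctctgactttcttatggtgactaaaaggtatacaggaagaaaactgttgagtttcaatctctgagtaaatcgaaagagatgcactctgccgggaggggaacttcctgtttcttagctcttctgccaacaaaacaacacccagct

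In Isg15 the 3 matches began 78, 72 and 66 bases before the start site and formed 1 continuous run, and in Ifit1 the matches began 104 and 85 bases before it. Short windows around the match in 5 further members show the same core in either orientation. Stat2 is at chr10:128270266-128270295 (plus strand), Ifit3 at chr19:34583363-34583392 (plus), Bst2 at chr8:71537580-71537609 (minus), Oas1a at chr5:120907523-120907552 (minus) and Rsad2 at chr12:26456553-26456582 (minus).
Stat2: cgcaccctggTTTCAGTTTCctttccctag
Ifit3: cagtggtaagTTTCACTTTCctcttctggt
Bst2: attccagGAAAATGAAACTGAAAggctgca
Oas1a: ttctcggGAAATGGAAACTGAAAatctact
Rsad2: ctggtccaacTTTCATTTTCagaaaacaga

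The remaining members with a match were Ifih1, Ddx58, Eif2ak2, Ifi203 and Trim30a. Irf9 and Irf7 had none in the windows entered for them. Dhx58, Zbp1, Ifi204, Mx1, Mx2, Oas2, Usp18, Parp9, Parp14, Ifi27 and Rtp4 had no promoter entry and were not searched. The median log2 fold change with LOY was 0.43 over the 12 members with a match and 0.55 over the 13 without (ranges -0.05 to 0.81 and -0.23 to 0.94), which is a description and says nothing of where a factor binds.

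All 35 members listed in the first table were read in every kidney, and their levels spanned a wide range. Levels are in CPM, counts scaled to a common library size, divided by the kilobases of annotated exon where genes are compared with each other. In Control kidneys the mean was highest for Samd9l, a restriction factor of poxviruses, at 40.2 CPM per kb. It was followed by Bst2, which tethers budding virus to the cell surface, at 26.2, and Ifit3, which binds other IFIT proteins, at 22.1 CPM per kb. At the other end stood the GTPases Mx2 (0.511 CPM per kb) and Mx1 (0.808) and the DNA-sensing family member Pyhin1 (0.841). In LOY kidneys Bst2 came first at 43.2 CPM per kb and Samd9l second at 41.6. Samd9l and Bst2 overlapped in the spread of their LOY kidneys, so the order of this pair was not resolved. Ifi27 is left out of this order because it was not listed under that symbol. In the ABT263 table Ifi27 had the highest mean of the listed members. It read 39.8 CPM per kb with the control compound and 45.2 with ABT263, against 37.3 and 39.9 for Samd9l.

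**Figure D1:**
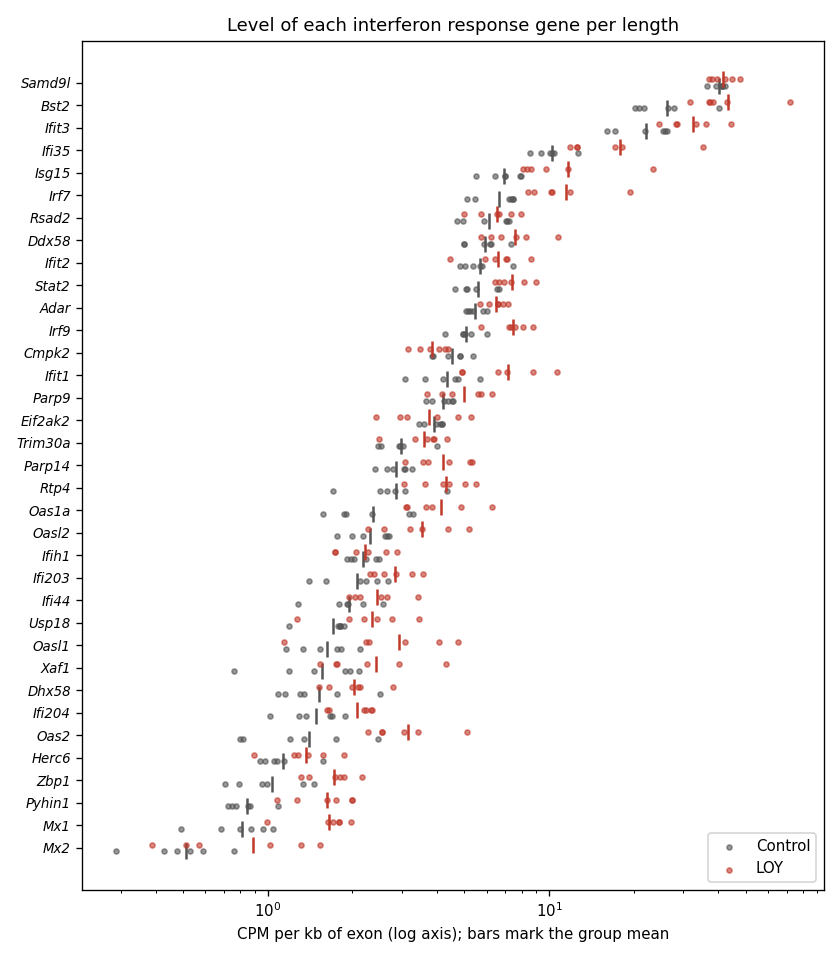
Level of each of the 35 members in the LOY and Control table, in CPM per kb of exon on a log axis; small points are kidneys (6 Control, 6 LOY) and vertical bars are group means. Samd9l lies highest in Control kidneys at 40.2 and Mx2 lowest at 0.511, and the LOY mean lies to the right of the Control mean for 33 of 35 members by log2 fold change.

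Comparing LOY with Control kidneys asks what a blood system without the Y chromosome changes in the kidney. Of the 35 members 3 rose and 0 fell by edgeR's quasi-likelihood test with an adjusted p under 0.05, where 1.11% of all tested genes were called higher and 0.0601% lower. They were the ISGF3 subunit Irf9, the sensor family member Pyhin1 and the effector Mx1. Most other members leaned the same way: 33 of 35 log2 fold changes were positive (52.3% over all genes), and 23 were higher and 0 lower at an unadjusted p under 0.05 (13.5% and 9.33% of all genes). The median was 0.55 over the members and 0.02 over all tested genes, and the range ran from -0.23 (Cmpk2) to 1.18 (Oas2). In 2 members, Irf7 and Isg15, every LOY kidney lay above every Control kidney, as in 1.56% of all genes; in 0 members did they all lie below (0.461% of all genes).

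The regulators come first in the response. Irf9, the DNA-binding subunit of ISGF3 (chr14:55603571-55610030, plus strand), read 22.9, 26.9 and 32.5 CPM in the lowest, median and highest Control kidney and 30.9, 40.2 and 47.1 CPM in LOY. Animal 5 was the only LOY kidney inside the Control range, and the other 5 lay above it. Irf9 rose by a log2 fold change of 0.55 ± 0.11 (SE), from 27.4 ± 3.08 to 40.1 ± 5.44 CPM (SD, n = 6 each; edgeR adjusted p = 0.0365).

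Irf7 (chr7:141262706-141266481, minus strand), the factor that amplifies interferon production, read 19.4, 27.4 and 28.2 CPM (lowest, median, highest) in Control and 31.8, 38.5 and 73.0 CPM in LOY kidneys. The groups did not overlap, and LOY animal 8 stood far above the rest of its group. The log2 fold change was 0.78 ± 0.19 and missed the threshold (edgeR adjusted p = 0.0577). Stat2, a subunit of ISGF3, ranged from 27.4 to 39.2 CPM (median 31.5) in Control and from 38.2 to 53.1 CPM (median 42.2) in LOY. Its log2 fold change was 0.41 ± 0.12 (edgeR adjusted p = 0.0996), with 5 of 6 LOY kidneys above all Controls.

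Among the 9 sensors 1 rose, and 8 had positive changes (median 0.41). Pyhin1 (chr1:173630917-173647928, plus strand) belongs to the PYHIN family, whose proteins bind DNA and act in nuclear and cytosolic sensing. It read 2.57, 2.88 and 3.86 CPM (lowest, median, highest) in Control kidneys and 3.83, 6.00 and 7.08 CPM in LOY. The lowest LOY kidney, animal 9, fell just inside the Control range. Pyhin1 rose by 0.94 ± 0.20 on the log2 scale, from 2.98 ± 0.473 to 5.75 ± 1.33 CPM (SD, n = 6 each; edgeR adjusted p = 0.0376). It lies in a cluster of related genes that includes the members Ifi203 and Ifi204, among which reads could be split.

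Ifi204, another PYHIN member, had 3.64, 5.41 and 6.73 CPM in Control (lowest, median, highest) and 5.80, 7.92 and 8.40 CPM in LOY, a log2 fold change of 0.48 ± 0.18 (edgeR adjusted p = 0.164). Zbp1, which senses Z-form nucleic acid and can start necroptosis, had 2.49, 3.43 and 5.17 CPM in Control and 4.64, 6.25 and 7.65 CPM in LOY (0.72 ± 0.21; edgeR adjusted p = 0.101). Adar, the RNA editor that keeps the cell's own double-stranded RNA from being sensed, had 41.2, 43.1 and 48.8 CPM in Control and 46.2, 53.4 and 58.2 CPM in LOY (0.26 ± 0.09; edgeR adjusted p = 0.140). In these 3 genes the groups overlapped, with 4 LOY kidneys above all Controls for Ifi204 and Zbp1 and 5 for Adar. Ifih1, which encodes the double-stranded RNA sensor MDA5, had a LOY range (14.1 to 23.6 CPM) that enclosed the Control range (15.7 to 20.3 CPM), and a log2 fold change of 0.03 ± 0.14 (edgeR adjusted p = 0.918).

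The 13 antiviral effectors had the highest median of the role groups, 0.72, with 12 of 13 positive and 1 past the threshold. Mx1 (chr16:97447035-97462907, minus strand) encodes a dynamin-like GTPase that blocks influenza and related viruses; many laboratory mouse strains carry a defective copy, and the strain used was not given. It read 1.86, 3.15 and 3.96 CPM in Control (lowest, median, highest) and 3.76, 6.62 and 7.48 CPM in LOY kidneys. LOY animal 5 alone lay within the Control range. Mx1 rose by 1.03 ± 0.22 on the log2 scale, from 3.06 ± 0.759 to 6.25 ± 1.29 CPM (SD, n = 6 each; edgeR adjusted p = 0.0386).

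Oas2, which makes the second messenger that switches on RNase L, had the largest change of the 35 members, 1.18 ± 0.28 on the log2 scale. It read 3.54, 5.68 and 11.0 CPM in Control and 10.1, 12.5 and 22.8 CPM in LOY kidneys and missed the threshold (edgeR adjusted p = 0.0543). Control animal 3, the highest of its group, lay above the lowest LOY kidney, so the groups overlapped.

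The IFIT genes encode related antiviral proteins, some of which recognise viral RNA ends. Ifit1 had 8.14, 11.7 and 15.1 CPM in Control (lowest, median, highest) and 13.1, 18.1 and 28.3 CPM in LOY (0.72 ± 0.21; edgeR adjusted p = 0.0934). Ifit3 had 28.1, 41.2 and 45.9 CPM in Control and 42.9, 54.1 and 77.5 CPM in LOY (0.56 ± 0.16; edgeR adjusted p = 0.0975). Their neighbour Ifit2 had 18.9, 21.7 and 29.2 CPM in Control and 17.5, 26.5 and 34.0 CPM in LOY (0.22 ± 0.15; edgeR adjusted p = 0.380). The LOY kidneys thus sat mostly above the Controls for Ifit1 and Ifit3, while 5 of 6 lay within the Control range or below it for Ifit2. These genes have close copies in 1 cluster, so reads may be divided among them.

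Bst2, the virus tether, had 18.3, 21.7 and 36.4 CPM in Control and 28.7, 34.1 and 65.0 CPM in LOY kidneys. Only LOY animals 8 and 9 exceeded the highest Control, animal 3. The log2 fold change was 0.72 ± 0.21 and did not pass (edgeR adjusted p = 0.1005).

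Some effectors lay close to 0. Samd9l, the most abundant member per length in Control kidneys by mean, was 218 ± 11.5 CPM in Control and 226 ± 22.8 CPM in LOY kidneys (SD, n = 6 each), a log2 fold change of 0.05 ± 0.09. Rsad2, encoding viperin, had 0.09 ± 0.14 on the log2 scale, although its promoter window holds an ISRE core. Cmpk2, the neighbour of Rsad2 on chromosome 12 and a kinase of nucleotide synthesis, was 18.8 ± 2.51 CPM in Control and 16.0 ± 1.95 CPM in LOY kidneys, the lowest log2 fold change of all members (-0.23 ± 0.12).

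**Figure D2:**
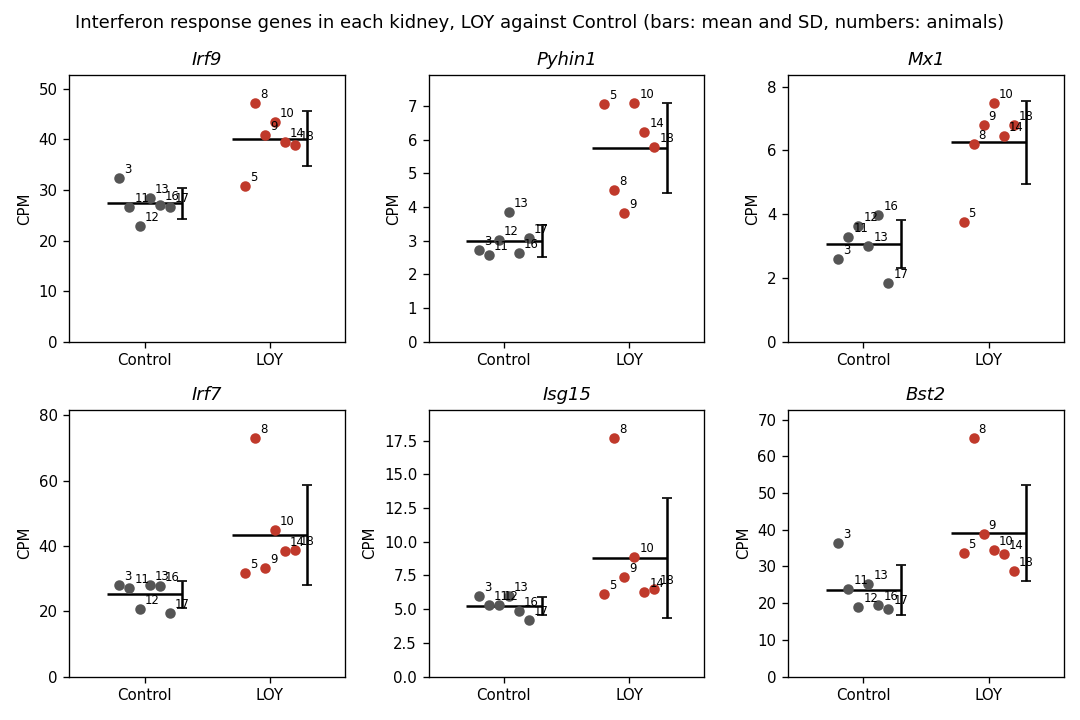
CPM of 6 members in each of 6 Control and 6 LOY kidneys, each axis starting at 0; points are kidneys labelled by animal number, horizontal lines are means and error bars SD. The 3 members that rose, Irf9, Pyhin1 and Mx1, each have 5 of 6 LOY kidneys above all Controls, and LOY animal 8 stands apart in Irf7 (73.0 CPM), Isg15 (17.7 CPM) and Bst2 (65.0 CPM).

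The ISG15 system attaches the ubiquitin-like protein ISG15 to other proteins and removes it. Isg15 (chr4:156199424-156200818, minus strand), whose ISRE run is printed above, read 4.18, 5.27 and 5.99 CPM in Control (lowest, median, highest) and 6.13, 6.94 and 17.7 CPM in LOY. The groups did not overlap. Animal 8 was far above the other LOY kidneys, which lay between 6.13 and 8.83 CPM. The log2 fold change was 0.74 ± 0.25 (edgeR adjusted p = 0.141), and 0.42 without animal 8. Usp18, which removes ISG15 and restrains the receptor, had 3.33, 5.04 and 5.21 CPM in Control and 3.55, 6.47 and 9.62 CPM in LOY (0.45 ± 0.22; edgeR adjusted p = 0.227). Herc6, the mouse ISG15 ligase, was the third gene of this group, and 0 of the 3 passed.

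All 7 tested members of the last group had positive changes (median 0.56) and 0 passed. Parp14, an ADP-ribosyltransferase, had 22.3, 27.2 and 30.2 CPM in Control and 28.7, 37.7 and 49.4 CPM in LOY (0.56 ± 0.14; edgeR adjusted p = 0.0666). Ifi35 had 14.7, 17.6 and 21.8 CPM in Control and 20.5, 25.7 and 60.9 CPM in LOY (0.81 ± 0.24; edgeR adjusted p = 0.103). Parp9, the partner of the ubiquitin ligase DTX3L, had 17.7, 20.9 and 22.2 CPM in Control and 18.0, 24.7 and 30.6 CPM in LOY (0.25 ± 0.14; edgeR adjusted p = 0.265). The groups overlapped in all 3, with LOY animal 8 highest for Ifi35, animal 10 for Parp9 and animal 18 for Parp14. Ifi27 was not listed, and the row Ifi27l1, a RefSeq synonym of it, went from 53.6 ± 10.8 to 71.0 ± 15.2 CPM (SD, n = 6 each), a log2 fold change of 0.41 ± 0.15 (edgeR adjusted p = 0.161).

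**Figure D3:**
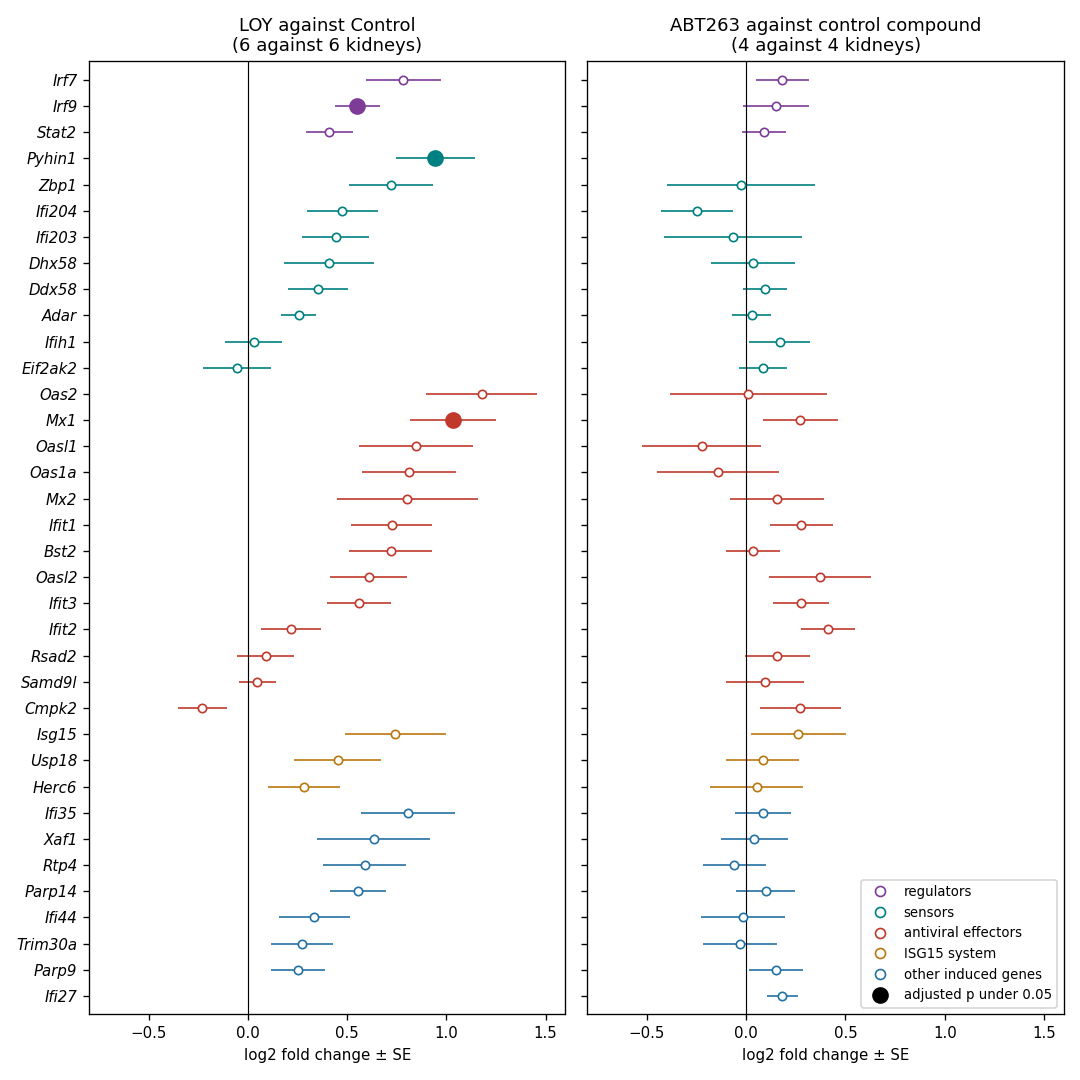
Log2 fold change ± SE of each member, by role, for LOY against Control (6 against 6 kidneys) and ABT263 against control compound (4 against 4); large filled points passed an adjusted p of 0.05. The left panel has 3 filled points, Irf9, Pyhin1 and Mx1, and 33 of 35 points right of 0, and the right panel has 0 filled points and 27 of 35 right of 0.

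The LOY kidneys did not share the elevation equally. Animals 8 and 10 each gave the highest reading of all 12 kidneys for 14 of the 35 members, and Control animals 12 and 17 gave the lowest for 15 and 8. The median deviation of the members from the mean of the 12 kidneys, on a log2 scale, was 0.47 in LOY animal 8, 0.48 in animal 10, 0.26 in animal 18 and 0.20 in animal 14. It was 0.05 in LOY animal 9 and -0.02 in animal 5, against -0.51 to -0.09 in the Control kidneys. Every LOY kidney thus lay above every Control kidney by this summary, with animals 5 and 9 nearest to them.

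Animals 8 and 10 led in different members. Animal 8 was highest for Irf7, Irf9, Isg15, Bst2, Ifit1, Ifit3, Usp18, Ifi35, Adar and 5 others, whose median exon length was 2.63 kb. Animal 10 was highest for Stat2, Pyhin1, Mx1, Oas2, Ifit2, Parp9 and 8 others, with a median exon length of 4.99 kb. In the library of LOY animal 8, short genes read high and long genes low throughout the table. Against the other LOY kidneys the median log2 ratio was 0.54 over 1915 tested genes with under 2 kb of exon and -0.31 over 5556 genes with over 5 kb, and for animal 10 these were -0.10 and 0.07. LOY animals 14 (-0.21 and 0.12) and 18 (-0.27 and 0.18) were shifted the other way, while animals 5 and 9 lay between -0.03 and 0.08 on both measures. Among the Control kidneys animal 3, the highest Control for Bst2 and Oas2, was shifted as animal 8 was, with 0.25 over the short and -0.11 over the long genes against the other Controls, and the rest lay between -0.09 and 0.04. The part of gene length in the members' values was not tested. Without animal 8 the log2 fold change was 0.57 for Irf7, 0.51 for Bst2 and 0.50 for Ifi35, and 34 of 35 members were positive (51.3% of all genes in that fit) with 5 past the threshold (1.29% of all genes called higher) and a median of 0.45.

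**Figure D4:**
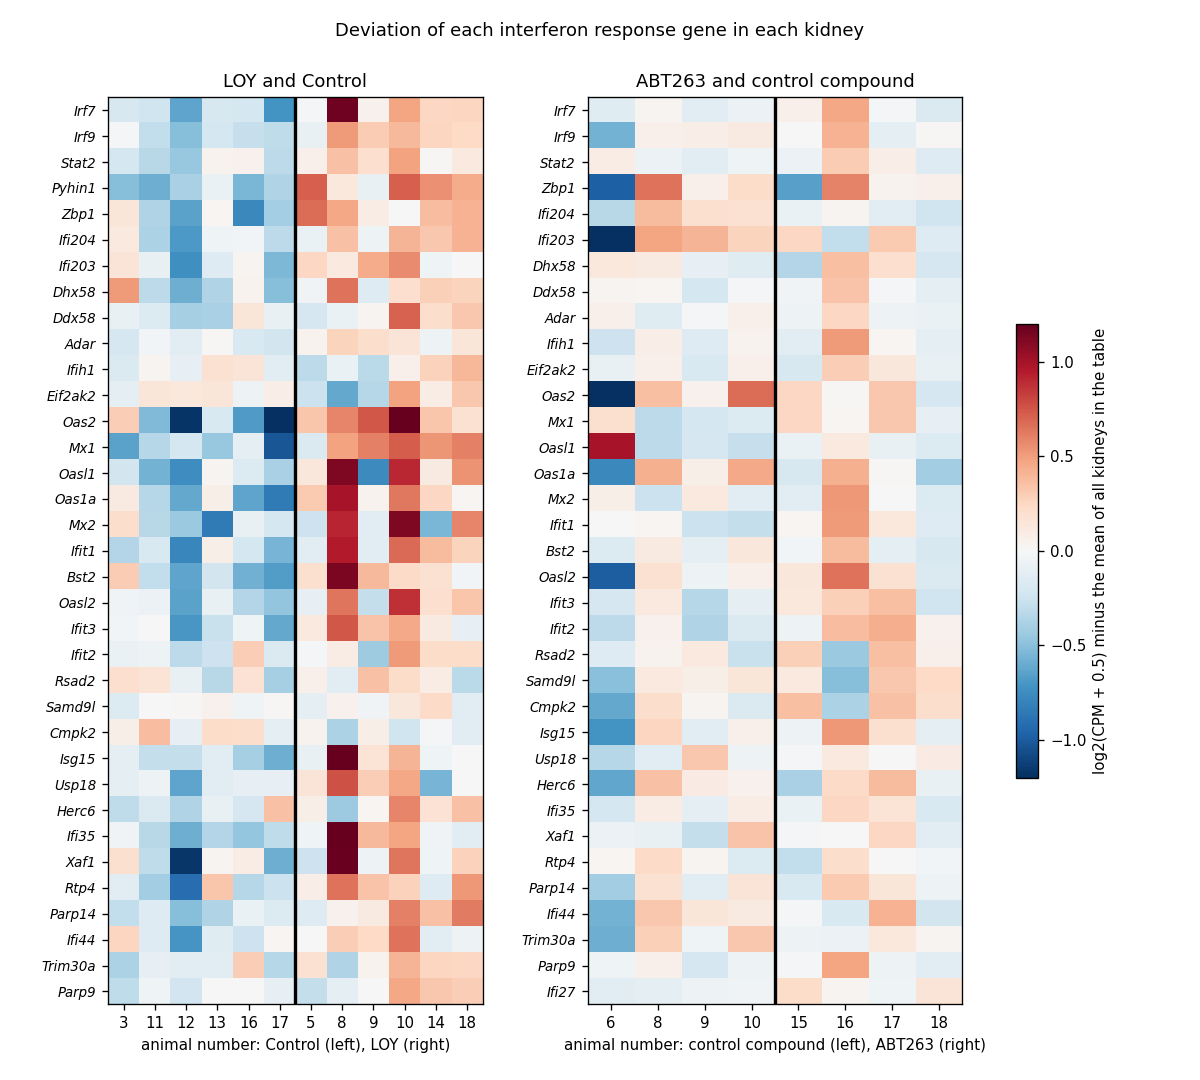
Deviation of log2(CPM + 0.5) from the mean of all kidneys of the table, for each tested member (rows, by role) and kidney (columns, animal numbers), with groups parted by a black line and colours saturating at the ends of the scale. LOY animals 8 and 10 hold the highest value for 14 members each, ABT263 animal 16 for 16 members, and control-compound animal 6 the lowest for 17.

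The number of members called rested on single kidneys more than the fold changes did. It came to 0 when Control animal 11, 12, 13, 16 or 17 or LOY animal 10 or 14 was left out, where 0% to 0.748% of all genes were called higher, and to 1 without LOY animal 9 (0.622%). It was 5 without LOY animal 8 (1.29%) and 8 without Control animal 3, a fit in which 3.16% of all genes were called higher, against 1.11% with all 12 kidneys. Over these 12 fits the log2 fold change stayed between 0.50 and 0.61 for Irf9, 0.86 and 1.04 for Pyhin1 and 0.91 and 1.13 for Mx1, with edgeR adjusted p up to 0.124, 0.118 and 0.113. Without LOY animals 8 and 10 together 0 members passed (0.172% of all genes called higher) and the median was 0.31. Animal number differed between the groups: 5 of 6 Control kidneys but 2 of 6 LOY kidneys were numbered above 10. Among those alone 7 members passed (2.27% of all genes called higher) with a median of 0.44, while with animal number as a term 0 passed (0% of all genes) and the median was 0.41.

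The ligands themselves were almost unread. Of 21 interferon genes listed, 15 had 0 counts in all 12 kidneys and 0 passed the filter. The 18 type I genes among them summed to 1 to 8 counts in a Control kidney and 1 to 5 in a LOY kidney. Ifnb1, encoding interferon beta, had 0 counts in every Control kidney, which allows up to 3 counts in each, and at most 1 in a LOY kidney. At this depth (13332563 to 19386408 counts per kidney) a difference in ligand RNA was not detectable. Ifng, encoding interferon gamma, had 5 counts in the Control kidneys together and 18 in the LOY kidneys, of which 10 were in LOY animal 18.

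The receptor and its kinases were abundant, and 0 of 9 listed genes of interferon receptors and their signalling passed. Of these 7 were positive and 2 negative (median 0.17). At an unadjusted p under 0.05, 2 were higher and 0 lower (13.5% and 9.33% of all genes). Ifnar1 was 67.2 ± 1.91 CPM in Control and 75.9 ± 8.28 CPM in LOY kidneys (log2 fold change 0.18 ± 0.09; edgeR adjusted p = 0.238), and Ifnar2 33.1 ± 2.68 and 42.8 ± 8.37 CPM (0.37 ± 0.12; adjusted p = 0.132; SD, n = 6 each). The kinases Jak1 (-0.09 ± 0.12) and Tyk2 (0.06 ± 0.12) lay near 0. Of 15 upstream sensing genes 0 passed, with the factor Irf3 at 0.42 ± 0.20 (edgeR adjusted p = 0.226). Yet 11 were positive and 4 negative (median 0.37), and 7 were higher and 0 lower at an unadjusted p under 0.05. Of 10 negative regulators 0 passed, while 8 were positive and 2 negative (median 0.24). At the same unadjusted p, 3 of them were higher and 1 lower.

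Beyond the 36 members, 49 other type I induced genes were tested and 2 rose: Epsti1 (1.08 ± 0.21; edgeR adjusted p = 0.0342), from 4.19 ± 0.840 to 8.92 ± 2.70 CPM, and the growth regulator Slfn2 (0.85 ± 0.18; adjusted p = 0.0397), from 10.2 ± 2.48 to 18.4 ± 3.94 CPM (SD, n = 6 each). Their median was 0.43, with 42 of 49 positive. In a set of 13 tested genes better known for induction by interferon gamma, 1 rose, the guanylate-binding protein Gbp3 (0.80 ± 0.16; edgeR adjusted p = 0.0343), and all 13 were positive (median 0.56). The members' median of 0.55 was close to that of the gamma set, and several genes of both sets respond to either interferon.

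Several lists of leukocyte markers were also higher in LOY kidneys, and their relation to the members kidney by kidney was not tested. Of 4 general leukocyte markers 3 rose, among them Ptprc (0.81 ± 0.14; edgeR adjusted p = 0.0250), and their summed level was 56.8 to 108 CPM in Control and 126 to 177 CPM in LOY kidneys. Of 10 macrophage markers 3 rose, led by Lyz2 (1.21 ± 0.15; adjusted p = 0.0146), with sums of 223 to 363 and 403 to 541 CPM, and of 7 T cell markers 3 rose, with sums of 9.92 to 14.4 and 21.5 to 32.7 CPM. In none of these 3 lists did the ranges overlap. Of 7 plasmacytoid dendritic cell markers 5 were tested, 4 were positive and 1 rose (median 0.64), the lectin receptor Clec12a (1.02 ± 0.21; edgeR adjusted p = 0.0343), whose groups did not overlap. Their sums were 1243 to 1706 CPM in Control and 1506 to 2743 CPM in LOY kidneys. Nearly all of each sum came from the kallikrein Klk1, so the sums do not describe the other markers of the list. The defining marker Siglech read at most 0.888 CPM and was below the filter, so a signal of these cells was not resolved. Of 4 platelet markers 2 were tested and 1 rose, the chemokine Pf4 (1.45 ± 0.32, edgeR adjusted p = 0.0451), while the other lay near 0 (0.01). The platelet sums were 15.0 to 21.2 CPM (median 19.3) in Control and 15.8 to 41.7 CPM (median 18.7) in LOY kidneys. All 4 B cell markers were positive with 0 past the threshold (median 0.87; sums of 2.81 to 9.74 and 4.66 to 17.6 CPM). Of 6 natural killer markers 2 were tested, both positive with 0 past the threshold (median 0.33; sums of 1.39 to 2.42 and 1.81 to 2.67 CPM), and Ncr1 had 0 counts in every kidney. Of 5 neutrophil markers 1 was tested and did not pass (0.61 ± 0.58), with sums of 0.638 to 3.18 and 0.291 to 3.18 CPM. Of 4 endothelial markers 1 was positive and 0 passed (sums of 156 to 238 and 145 to 259 CPM). The 8 kidney tubule and glomerulus markers were all tested and 0 passed, with 3 positive and 5 negative (median -0.40). At an unadjusted p under 0.05, 3 were lower and 0 higher (9.33% and 13.5% of all genes). Their sums were 11172 to 16711 CPM in Control and 7446 to 13655 CPM in LOY kidneys. The part of leukocyte number in the members' values was not tested.

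Comparing ABT263 with the control compound among LOY mice asks whether the senolytic changes these genes. Here 0 of 35 tested members passed edgeR's quasi-likelihood test, as did 0% of all 16956 genes. At an unadjusted p under 0.05, 2 members were higher and 0 lower (2.95% and 2.96% of all genes). DESeq2 and voom with quality weights also called 0 members, and 44 and 11 genes in all. The median log2 fold change was 0.09 over the members and -0.00 over all genes, 27 of 35 were positive and 8 negative (49.4% and 50.6% of all genes). Of 13 tested genes better known for induction by interferon gamma, 11 were positive and 2 negative (median 0.23). Of 52 other type I induced genes tested, 31 were positive and 21 negative (median 0.04). In 0 members did the groups not overlap, against 2.04% of all genes on the higher and 2.25% on the lower side. Animals numbered 6 to 10 all had the control compound and those numbered 15 to 18 all had ABT263, so animal number and treatment cannot be told apart.

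The 2 members with an unadjusted p under 0.05 were Ifit2 and Ifi27. Ifit2 read 27.6, 36.0, 26.8 and 30.7 CPM in control-compound animals 6, 8, 9 and 10 and 33.1, 44.8, 47.1 and 35.9 CPM in ABT263 animals 15, 16, 17 and 18. ABT263 animals 16 and 17 lay above every control-compound kidney, and the other two did not. The log2 fold change was 0.41 ± 0.14, the largest of the 35 (edgeR adjusted p = 0.707; exact two-sided permutation p = 0.0857, where 4 against 4 cannot go below 0.0286). Ifi27, which encodes a small membrane protein, read 56.7, 57.2, 59.5 and 60.4 CPM with the control compound and 72.3, 63.7, 60.1 and 69.1 CPM with ABT263. Only ABT263 animal 17 was within the control range, and the log2 fold change was 0.18 ± 0.08 (edgeR adjusted p = 0.827).

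The regulators, which had all been positive with LOY, were spread over both groups. Irf9 read 19.8, 30.9, 31.3 and 32.0 CPM with the control compound (animals 6, 8, 9 and 10) and 29.6, 39.6, 27.3 and 30.0 CPM with ABT263 (animals 15, 16, 17 and 18), a log2 fold change of 0.15 ± 0.17 (edgeR adjusted p = 0.913). Irf7 read 21.9, 24.8, 22.2 and 23.1 CPM and then 25.4, 33.7, 23.9 and 21.5 CPM (0.18 ± 0.14; edgeR adjusted p = 0.858). In both, animal 16 was the highest kidney, and for Irf9 animal 6 was the lowest. Stat2 had 0.09 ± 0.11 (edgeR adjusted p = 0.923).

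Mx1, which had risen with LOY, read 6.28, 4.27, 4.62 and 4.79 CPM with the control compound and 6.53, 5.55, 6.94 and 5.04 CPM with ABT263 (0.27 ± 0.19; edgeR adjusted p = 0.854). Animal 6 was the only control-compound kidney among the ABT263 values. Isg15 read 4.05, 8.45, 6.30 and 7.33 CPM and then 6.66, 10.2, 8.07 and 6.42 CPM (0.26 ± 0.24; edgeR adjusted p = 0.889). Bst2 read 27.8, 33.7, 28.6 and 34.2 CPM and then 30.4, 40.8, 28.8 and 27.1 CPM (0.03 ± 0.14; edgeR adjusted p = 0.984). In both genes the ranges overlapped widely and animal 16 was the highest.

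Among the other effectors Ifit1 (0.28 ± 0.16; edgeR adjusted p = 0.847), Ifit3 (0.28 ± 0.14; adjusted p = 0.837) and Oas2 (0.01 ± 0.40; adjusted p = 0.998) did not pass. Oas2 ranged from 2.05 CPM in animal 6 to 10.8 CPM in animal 10 within the control group, a wider spread than that of the 4 ABT263 kidneys (5.66 to 8.33 CPM). The sensors Zbp1 (-0.03 ± 0.37), Adar (0.03 ± 0.10) and Ifih1 (0.17 ± 0.15) did not pass, and Ifi204 had the lowest value of the 35 members (-0.25 ± 0.18; edgeR adjusted p = 0.858). The Ifi209 row, under which Pyhin1 stands in RefSeq, was 4.98 ± 1.97 CPM with the control compound and 4.64 ± 0.841 CPM with ABT263 (SD, n = 4 each; -0.11 ± 0.28; edgeR adjusted p = 0.970). Usp18 (0.08 ± 0.18), Parp9 (0.15 ± 0.14), Parp14 (0.10 ± 0.15) and Ifi35 (0.09 ± 0.14) did not pass either.

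A single kidney of each group framed the pattern. Control-compound animal 6 had the lowest value of the 8 kidneys for 17 members and ABT263 animal 16 the highest for 16. The median deviation of the members was -0.21 in animal 6 and 0.29 in animal 16, and -0.11 to 0.13 in the other 6 kidneys. Without both, the median log2 fold change was -0.03 and 13 of 35 members were positive (50% of all genes in that fit).

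Upstream, Ifnar1 (0.00 ± 0.09), Ifnar2 (0.03 ± 0.10), Jak1 (0.17 ± 0.11) and Tyk2 (0.17 ± 0.14) did not pass in the ABT263 comparison. Of the interferon ligands 5 were listed and 0 passed the filter, the 4 type I genes among them summing to at most 6 counts in a kidney. All 4 leukocyte markers, 8 of 10 macrophage markers and all 8 T cell markers had negative changes with 0 past the threshold, such as Ptprc (-0.33 ± 0.23; edgeR adjusted p = 0.856) and Lyz2 (-0.84 ± 0.19; adjusted p = 0.648). Of the plasmacytoid dendritic cell markers 1 of 5 tested was positive, of the B cell markers 1 of 3 and of the platelet markers 2 of 2, with 0 past the threshold. Macrophage markers summed to 366 to 623 CPM with the control compound and 340 to 388 CPM with ABT263. The macrophage markers' median was -0.29, and the part of leukocytes in the members' values was not tested.

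Set side by side, the comparisons shared 34 tested members. Of these 32 were positive with LOY; 24 of the 32 were also positive with ABT263 and 8 were negative. The change with ABT263 was larger in size than that with LOY in 6 of the 34 members, Ifit2 (0.22 with LOY, 0.41 with ABT263) and Cmpk2 (-0.23 and 0.27) among them. The tables were normalised separately and the difference between the comparisons was not tested.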

How the data were processed

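The authors deposited whole-number gene counts in a table per experiment; the genome build was mm10, per the submitters' processing notes, and aligner, counter, annotation and strand setting were not given in the sources used here. Total RNA was sequenced, per the labels' protocols. Totals were 13332563 to 19386408 counts per kidney in the LOY table and 14587809 to 20791633 in the ABT263 table; a row of reads without a gene (0.223% to 0.401% of the first) was left out. Without strand, antisense overlaps cannot be told apart. Replicates are separate animals by title and were checked as distinct libraries (squared count differences at least 1.55 times the Poisson expectation over 42 pairs).

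Each table was fitted alone with edgeR 4.0.16 in R 4.3.3 (TMM, filterByExpr with a minimum count of 10 and total of 15, robust quasi-likelihood F test), adjusted by Benjamini-Hochberg over all tested genes with a threshold of 0.05. Each SE was derived from F, dividing the absolute log2 fold change by its root. CPM uses TMM-scaled totals. DESeq2 1.42.0, voom in limma 3.58.1, other scalings, filters and thresholds and each kidney left out were alternatives. The code was tested on simulated counts. Positions and exon lengths are from GENCODE on GRCm38 and promoters from RefSeq on GRCm38.p6 (25 of 36 members matched). Pyhin1 was matched through a RefSeq synonym for these and for its count row in the ABT263 table. For Ifi27 a synonym served only for the count row in the LOY table. The synonym step was added after seeing the data.

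Members named are those past the threshold, the 2 smallest p per role in each comparison, Irf7, Stat2, Isg15, Ifit1, Ifit3, Bst2, Zbp1, Adar and members not listed. Others appear in counts, as extremes (Samd9l, Mx2, Cmpk2) or for their promoter (Rsad2 and those listed with a match or without an entry), which were picked after values were seen. The members and the other lists were chosen with earlier results of these data known. Genes that are no members were named where past the threshold (up to 4 per list, smallest p first) or from a short fixed list of pathway and marker genes, of which 1 is not reported here.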

Additional observations from a re-analysis of the deposited data

Results flagged for a closer look

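In 76 groups of kidneys, 1 group for each named member and treatment group, the highest or lowest kidney was set against its neighbours. In 10 of them it stood apart by Dixon's 95% criterion. For a single group chance alone gives about 1 in 20. The same kidneys recur across members, so the 76 groups are not independent and their number of flags cannot be set against that rate. LOY animal 8 was the highest of its group for Irf7 (73.0 CPM, others 31.8 to 44.9), Bst2 (65.0, others 28.7 to 38.7), Isg15 (17.7, others 6.13 to 8.83) and Ifi35 (60.9 CPM, others 20.5 to 31.4). LOY animal 5 was the lowest for Mx1 (3.76 CPM, others 6.22 to 7.48). Control animal 16 was the highest for Ifit2 (29.2 CPM, others 18.9 to 22.6) and Control animal 12 the lowest for Usp18 (3.33 CPM, others 4.97 to 5.21). In the ABT263 table, control-compound animal 6 was the lowest for Irf9 (19.8 CPM, others 30.9 to 32.0). ABT263 animal 16 was the highest for Adar (48.0 CPM, others 38.2 to 38.5) and Parp9 (41.3 CPM, others 26.9 to 28.9).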

How the results depend on the processing

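With LOY, 3 members passed; 0 passed with total counts alone, with animal number as a term, or without LOY animals 8 and 10 together (median log2 fold change 0.31, against 0.55). DESeq2 called 13 (4% of all genes called higher in that fit), voom 11 (4.6%), an adjusted p of 0.1 called 9 (3%) and the animals numbered above 10 alone 7 (2.27%), against 1.11% in the fit reported. Leaving out 1 kidney gave 0 to 8 calls (0% to 3.16% of all genes called higher) and medians of 0.45 to 0.60. The median was positive in every setting run for LOY. With ABT263, 0 members passed in every setting run; leaving out 1 kidney gave medians of 0.01 to 0.14, and leaving out control-compound animal 6 with ABT263 animal 16 gave -0.0336. The causes of these changes were not tested, and the fits that leave kidneys out also rest on fewer kidneys. Ifih1 changed sign with LOY when single kidneys were left out (-0.0710 to 0.0899), and Usp18 in the animals numbered above 10 alone (-0.0616). With ABT263 the sign turned under voom for Irf9 (-0.0438), Oas2 (-0.13), Bst2 (-0.10), Parp14 (-0.0578) and Ifi35 (-0.00535). It turned without control-compound animal 6 and ABT263 animal 16 for Irf9 (-0.12), Ifih1 (-0.0585), Adar (-0.0348), Oas2 (-0.25), Bst2 (-0.16), Isg15 (-0.0586), Usp18 (-0.0336), Parp9 (-0.00583), Parp14 (-0.11) and Ifi35 (-0.0438). Leaving out 1 kidney gave ranges across 0 for Oas2 (-0.29 to 0.29), Zbp1 (-0.28 to 0.24), Bst2 (-0.11 to 0.10), Adar (-0.0568 to 0.0586), Usp18 (-0.0120 to 0.23), Parp14 (-0.0121 to 0.18), Parp9 (-0.00695 to 0.22), Stat2 (-0.00442 to 0.15) and Ifih1 (-8.24e-05 to 0.24). No paired analysis was possible because the groups compared share no animal numbers. Depth limits the ligands, with at most 8 type I counts in a kidney.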
